A study of Homo sapiens with 96 samples.

Results

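Alternative 3′ splice sites that lie more than 50 nt apart were followed in A549 cells treated with inhibitors of protein arginine methyltransferases (PRMTs). An alternative 3′ splice site (A3SS) event is a pair of acceptors to which the same upstream exon can be joined. Events were chosen from the 8 deposited rMATS tables by the distance between their acceptors, computed from the listed exon coordinates, and no measured value entered the choice. The rule took 4890 of 10117 A3SS events, which lie in 2717 genes and form 4054 distinct acceptor pairs. Of the other events, 3906 had acceptors 4 to 50 nt apart and 1250 had acceptors 3 nt apart. Each table listed 3440 to 3597 of the distant-acceptor events, and 2618 events (53.5%) were in all 8 tables.

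A549 is a human lung adenocarcinoma line, and all RNA-seq libraries used here came from this line without a genetic change. GSK591 inhibits PRMT5, the main enzyme of symmetric arginine dimethylation, and MS023 inhibits the Type I PRMTs, which place the asymmetric mark. The 10 groups, of 3 libraries each, were cells in 0.01% DMSO for 4 or 7 days, in 1 µM GSK591 for 2, 4, or 7 days, in 1 µM MS023 for 2, 4, or 7 days, and in GSK591 plus MS023 (1 µM each) for 2 or 4 days. The inhibitor groups of 2 and 4 days were set against the same 3 DMSO libraries of 4 days, so those comparisons share their controls, and for the 2-day groups the day differs from that of the control. The groups of 7 days were set against a control that was inferred to be DMSO of 7 days. Libraries are called a, b, and c by their order in the tables. No source says that they are separate cultures, so the spread between libraries behind the p-values may be technical. The main test took most of that spread from all A3SS events together rather than from the libraries of the event, as given below.

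An acceptor is recognised through a branch point, a pyrimidine-rich tract, and the AG that ends the intron. SF1 binds the branch point, the U2AF heterodimer binds the tract and the AG, and the U2 snRNP then replaces SF1. Where the acceptors of an event are far apart, each can have its own branch point and tract, so the choice can be made before the AG itself is read. Many of the proteins that take part carry methylated arginines, among them the Sm proteins of the snRNPs, which PRMT5 methylates, and hnRNPs and SR proteins, on which Type I PRMTs act. The segment between the acceptors, called the extension here, is exon when the upstream acceptor is used and intron when the downstream acceptor is used.

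The measure was Ψ, the share of the upstream acceptor (long form) among the reads of both forms after division by the effective length of each form. The deposited counts held junction reads and reads within the extension. Reads of an unspliced upstream intron that reach into the extension therefore also counted for the long form. In a bulk library, fewer cells that use an acceptor and less use per cell cannot be told apart, nor can a change of splicing and a change in the stability of 1 form.

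The extension was shortest at 51 nt and longest at 6432 nt, with quartiles of 79, 141, and 330 nt. It overlapped coding sequence of the annotation (GENCODE on GRCh37) in 3927 events, lay in untranslated sequence only in 499, and met no coding transcript in 464. Its length was a multiple of 3 in 38.8% of the events, the same share as in events with acceptors 4 to 50 nt apart (38.8%). An AG preceded the upstream exon start in 99.9% of the events and the downstream start in 99.8%. When the position was moved by 7 bases, the shares were 3.78% and 4.46%. Both introns were annotated in 2526 events (51.7%). An intron counted as annotated only from the donor of the event, so its acceptor may still be annotated from another donor. The pyrimidine share from base −20 to base −5 of the intron averaged 74.3% at the upstream and 71.5% at the downstream acceptor, against 69.7% and 67.6% in events with acceptors 4 to 50 nt apart.

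The acceptors below are those of the events described first in the results. Each is printed 5′ to 3′ on the strand of the gene, as the last 20 intronic and the first 3 exonic bases of GRCh37, and the capitals mark the AG that ends the intron. FN1 has 3 acceptors in 2 events with a common downstream acceptor. CPSF4 has 3 acceptors in 2 events with a common upstream acceptor, and its downstream acceptors overlap, since their AGs lie 3 nt apart.
RNF216 upstream (chr7:5779250-5779272, minus strand): gattccctttgtctagacAGaga
RNF216 downstream (chr7:5778981-5779003, minus strand): atgttcttatttgtttctAGgaa
TMEM141 upstream (chr9:139686379-139686401, plus strand): gggacctcggctctttgcAGgca
TMEM141 downstream (chr9:139686683-139686705, plus strand): ttccatttcctgctccacAGttg
PRPF40B upstream (chr12:50026777-50026799, plus strand): gtgcccccccccccacccAGagg
PRPF40B downstream (chr12:50027190-50027212, plus strand): cctatcccatccacttgcAGctg
FN1 upstream, 360 nt event (chr2:216237096-216237118, minus strand): ctctaacctctctcggctAGacg
FN1 upstream, 285 nt event (chr2:216237021-216237043, minus strand): cttggatgttccttccacAGttc
FN1 downstream, both events (chr2:216236736-216236758, minus strand): caatccaaatgcctctacAGgac
CPSF4 upstream, both events (chr7:99051569-99051591, plus strand): tgttgtgtaactctttccAGcaa
CPSF4 downstream, 75 nt event (chr7:99051644-99051666, plus strand): agaactcttctcccaatcAGcag
CPSF4 downstream, 78 nt event (chr7:99051647-99051669, plus strand): actcttctcccaatcagcAGaga
RECQL upstream (chr12:21654304-21654326, minus strand): ccttccctttcctgctgcAGggc
RECQL downstream (chr12:21654147-21654169, minus strand): ccccattcttttccatgcAGgag
CENPV upstream (chr17:16252645-16252667, minus strand): ccagtcctttttgcccctAGgta
CENPV downstream (chr17:16251997-16252019, minus strand): tttgctctgtctttctgtAGttg

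Over the 2271 distant-acceptor events with at least 10 reads in every library of all 8 comparisons, a library held 1807488 to 2866082 reads and its median Ψ was 0.886 to 0.912. Each library differed from the other 2 of its group by 0.0297 to 0.0372 in Ψ on average. Chi-square per degree of freedom between the libraries of a group averaged 1.67 to 2.75, so no libraries were counted as 1. All 8 epithelial and A549 markers had A3SS or other listed events with at least 10 reads in every library, whereas of 7 markers of other cell types only COL1A1 did.

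GSK591 changed more distant-acceptor events than MS023 on each day, and the direction differed. With GSK591 for 4 days, 388 of 3137 events tested were called, 237 with more use of the upstream acceptor (7.555%, against 5.24% of all A3SS events tested) and 151 with less (4.814%, against 3.65%). With MS023 for 4 days, 123 of 3135 were called, 32 higher (1.021%, against 0.71%) and 91 lower (2.903%, against 1.92%). With GSK591 plus MS023 for 4 days, 522 of 3165 were called, 283 higher (8.942%, against 6.58%) and 239 lower (7.551%, against 5.74%). An event was tested with at least 10 reads in all 6 libraries and called at an adjusted p under 0.05 in a quasi-binomial logistic model of its counts, with dispersions moderated over all A3SS events by limma.

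On day 2, GSK591 gave 135 events with higher and 76 with lower Ψ of 3034 tested (4.45% and 2.505%, against 2.91% and 1.85% of all A3SS events). MS023 for 2 days gave 32 higher and 87 lower of 3123 (1.025% and 2.786%, against 0.666% and 1.77%). GSK591 plus MS023 for 2 days gave 204 higher and 195 lower of 3091 (6.6% and 6.309%, against 4.61% and 4.39%). After 7 days, GSK591 gave 136 higher and 130 lower of 2957 (4.599% and 4.396%, against 3.46% and 3.24%). MS023 for 7 days gave 36 higher and 113 lower of 3036 (1.186% and 3.722%, against 0.823% and 2.57%). Higher Ψ thus prevailed among the called events of GSK591 at 2 and 4 days, and lower Ψ among those of MS023 on all 3 days, in the distant-acceptor events as in all A3SS events. The median absolute ΔΨ of called events was 0.0715 to 0.0983 in the 8 comparisons with DMSO, and 49 to 258 called events per comparison changed by over 0.1.

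**Figure D1:**
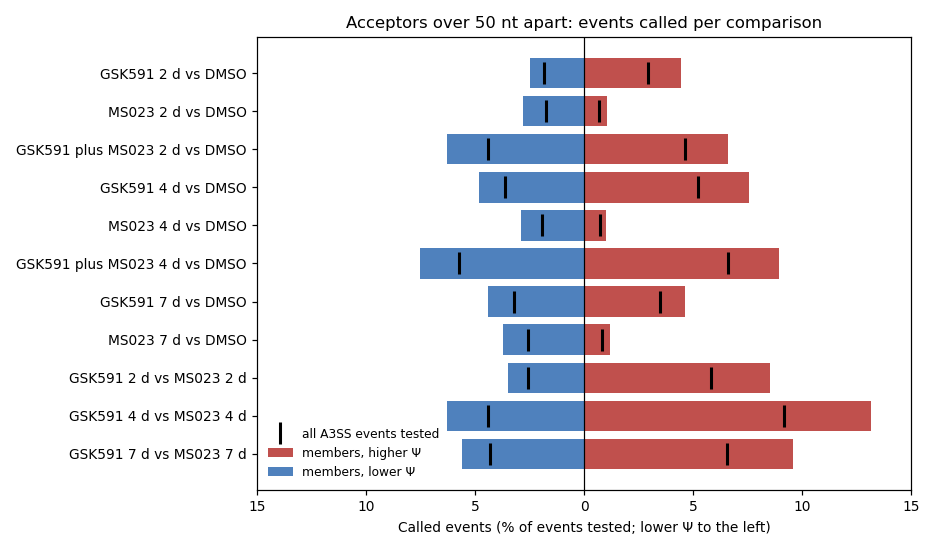
Share of tested distant-acceptor events called with higher Ψ (to the right of 0) and lower Ψ (to the left of 0), in percent on the x axis, for each comparison on the y axis. Black ticks give the shares of all A3SS events tested. The longest bars among the comparisons with DMSO are those of GSK591 plus MS023 at 4 d, with 8.942% higher and 7.551% lower.

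The number of calls depended on how the spread was estimated. The logistic model took most of an event's dispersion from all A3SS events, with a prior of 39.9 to 195 degrees of freedom against 4 of the event's own libraries in 9 of the 11 comparisons. In the other two, MS023 against DMSO at 2 days and GSK591 against MS023 at 4 days, it used the same dispersion for every event. The smallest p-values of events with many reads rest on this, and an event whose libraries scatter widely could still be called. Limma on log2 odds weighs the scatter of the libraries but not the reads behind each. By limma on log2 odds, 29 distant-acceptor events were called with GSK591 plus MS023 for 2 days (background 0.683% of all A3SS events) and 110 with both for 4 days (background 2.33%). By limma, 0 events were called with GSK591 alone, where 432, 575, and 473 had an unadjusted p under 0.05 at 2, 4, and 7 days and the logistic model called 211, 388, and 266. Limma also called 0 with MS023 alone, where 304, 360, and 339 had an unadjusted p under 0.05 and the logistic model called 119, 123, and 149.

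The largest rise that the naming rule took with GSK591 alone, among events with at least 50 reads in every library, was that of RNF216, a RING-type E3 ubiquitin ligase. Its event (ENSG00000011275.14, extension chr7:5778984-5779252, 269 nt, in coding sequence) used almost only the downstream acceptor in DMSO, with Ψ of 0.0706, 0.0702, and 0.0326 at 4 days. Ψ was 0.581, 0.616, and 0.522 with GSK591 for 2 days, 0.619, 0.694, and 0.609 for 4 days, and 0.822, 0.849, and 0.778 with GSK591 plus MS023 for 4 days. All GSK591 libraries lay far above all DMSO libraries. The change was 0.51 ± 0.030 (SE, n = 3 and 3) at 2 days, 0.58 ± 0.030 at 4 days, and 0.76 ± 0.024 with both inhibitors at 4 days (adjusted p = 3.2e-16, 4.45e-22, and 7.94e-23). At 7 days Ψ was 0.115, 0.121, and 0.0456 in DMSO and 0.525, 0.389, and 0.632 with GSK591 (adjusted p = 1.63e-12). With MS023 for 7 days it was 0.0165, 0.0192, and 0.0187, below each DMSO library (ΔΨ = −0.0757, adjusted p = 0.000397), a call that was lost without MS023 library c (adjusted p = 0.0571). A pseudogene copy of RNF216 lies on the same chromosome, so the reads of this event are uncertain in origin. Another event of RNF216, with acceptors 171 nt apart, was called higher in all 3 MS023 comparisons (ΔΨ of 0.114 to 0.152, at least 141 reads in every library).

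Of the distant-acceptor events tested in all 5 comparisons with GSK591 (2369 events), 43 were higher and 20 lower in each. These comparisons share controls, so the count only served to name events, of which the 6 with the largest mean change are shown. Besides RNF216 they lie in STAG3L4, MSH5, PGAP2, TMEM141, and PRPF40B. STAG3L4 belongs to a family of near-identical partial copies of the cohesin gene STAG3, so its reads too are uncertain in origin. Ψ of its 358 nt event was 0.169, 0.173, and 0.251 in DMSO at 4 days and 0.607, 0.648, and 0.726 with GSK591 for 4 days (ΔΨ = 0.46 ± 0.044, adjusted p = 3.32e-14). The change was of like size at 7 days, when Ψ was 0.169, 0.142, and 0.165 in DMSO and 0.658, 0.709, and 0.612 with GSK591 (ΔΨ = 0.50 ± 0.029, adjusted p = 7.63e-13).

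PGAP2 remodels the lipid of GPI anchors. In its 224 nt event (chr11:3846026-3846249) the intron from the donor of the event to the upstream acceptor was not annotated. Ψ was 0.254, 0.281, and 0.225 in DMSO at 4 days and 0.816, 0.632, and 0.638 with GSK591 for 4 days. The groups did not overlap (ΔΨ = 0.44 ± 0.063, adjusted p = 1.35e-07). At 7 days Ψ was 0.285, 0.341, and 0.155 in DMSO and 0.625, 0.629, and 0.627 with GSK591 (ΔΨ = 0.37 ± 0.055, adjusted p = 2.1e-05). At 2 days the call (ΔΨ = 0.25, adjusted p = 0.00375) was lost without GSK591 library b (adjusted p = 0.056), and that with both inhibitors for 2 days without library b of that group (adjusted p = 0.0558). MSH5, a MutS homolog of meiotic recombination, has an extension of 51 nt, or 17 codons, the shortest distance that the rule admits. Its Ψ was 0.127, 0.141, and 0.0675 in DMSO at 4 days and 0.713, 0.539, and 1 with GSK591 for 4 days (ΔΨ = 0.64 ± 0.14, adjusted p = 1.89e-05), but as few as 11 reads lay behind a value. The MSH5 calls at 2 and 7 days were each lost without GSK591 library b (adjusted p = 0.134 and 0.0733) or c (0.0778 and 0.129), and at 2 days also without GSK591 library a (0.0593) or DMSO library c (0.111). Reads of the readthrough transcript of MSH5 with its neighbour cannot be told apart from those of MSH5.

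TMEM141, a small membrane protein, moved the other way. In its 304 nt event (ENSG00000244187.3, chr9:139686399-139686702) the intron to the upstream acceptor was annotated and that to the downstream acceptor was not. Ψ was 0.539, 0.639, and 0.71 in DMSO at 4 days. It was 0.357, 0.298, and 0.294 with GSK591 for 2 days and 0.192, 0.207, and 0.209 for 4 days. Each GSK591 library was below each DMSO library (ΔΨ = −0.31 ± 0.054 and −0.43 ± 0.050, adjusted p = 1.1e-08 and 8.99e-16). At 7 days Ψ fell from 0.612, 0.65, and 0.619 to 0.301, 0.234, and 0.254 (ΔΨ = −0.36 ± 0.023, adjusted p = 1.53e-15).

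PRPF40B is a homolog of the yeast U1 snRNP protein Prp40. In its 413 nt event (ENSG00000110844.9, chr12:50026797-50027209) too, only the intron to the upstream acceptor was annotated. Ψ was 0.621, 0.658, and 0.709 in DMSO at 4 days, 0.241, 0.393, and 0.371 with GSK591 for 2 days, and 0.271, 0.257, and 0.249 for 4 days. The groups did not overlap on either day (ΔΨ = −0.33 ± 0.054 and −0.40 ± 0.026, adjusted p = 0.00087 and 7.15e-07). At 7 days ΔΨ was −0.32 (adjusted p = 0.00865), and the call was lost without DMSO library c (adjusted p = 0.0792), GSK591 library b (0.0733), or GSK591 library c (0.144). The extensions of TMEM141, PRPF40B, and STAG3L4 each held an intron that the tables also list as retained, a structure treated further on.

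**Figure D2:**
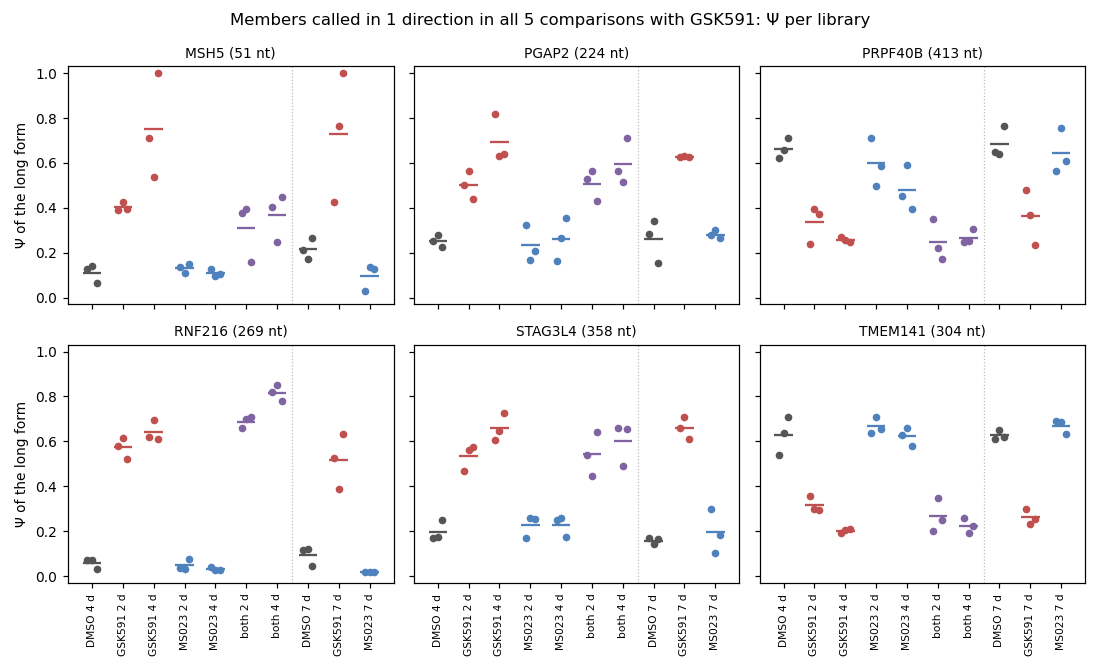
Ψ of the distant-acceptor events of MSH5, PGAP2, PRPF40B, RNF216, STAG3L4, and TMEM141 (y axis) in the 10 groups (x axis); each point is a library, each horizontal bar the mean of 3, and the dotted line separates the 7 d groups. In RNF216 the libraries with GSK591, alone or with MS023, sit between 0.389 and 0.849 and the DMSO libraries between 0.0326 and 0.121, whereas in TMEM141 the GSK591 libraries lie lowest.

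Other events that rose with GSK591 lie in LIG1, AP5Z1, HNRNPK, and PCBP2. LIG1, the ligase that seals Okazaki fragments, has an event of 71 nt in coding sequence. Its Ψ was 0.0608, 0.0488, and 0.053 in DMSO at 4 days, 0.24, 0.172, and 0.329 with GSK591 for 4 days, and 0.42, 0.536, and 0.434 with GSK591 plus MS023 for 4 days. The 3 groups did not overlap (ΔΨ against DMSO = 0.19 ± 0.046 and 0.41 ± 0.037, adjusted p = 4.1e-09 and 2.1e-14). At 7 days the call with GSK591 (ΔΨ = 0.0903, adjusted p = 0.000755) was lost without GSK591 library c (adjusted p = 0.107). AP5Z1, a subunit of the AP-5 adaptor, rose from 0.431, 0.333, and 0.412 to 0.691, 0.671, and 0.826 with GSK591 for 4 days (ΔΨ = 0.34 ± 0.057, adjusted p = 6.72e-08).

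HNRNPK, which binds C-rich RNA, has a 60 nt event (20 codons) with 2161 to 4698 reads in a library. Ψ was 0.56, 0.581, and 0.544 in DMSO at 4 days and 0.674, 0.665, and 0.678 with GSK591 for 4 days (ΔΨ = 0.11 ± 0.011, adjusted p = 2.29e-12). MS023 for 2 days also raised it, to 0.632, 0.61, and 0.597 (ΔΨ = 0.0516, adjusted p = 1.63e-05), a call lost without MS023 library a (adjusted p = 0.06). PCBP2, another poly(C)-binding protein, kept a small share of the upstream acceptor of its 1215 nt event. That share was 0.0165, 0.0162, and 0.0133 in DMSO at 4 days and 0.0356, 0.037, and 0.0349 with GSK591 for 4 days (ΔΨ = 0.0205 ± 0.0012, adjusted p = 7.25e-25). At 7 days it was 0.0101, 0.0115, and 0.0144 in DMSO and 0.0388, 0.0441, and 0.0377 with GSK591 (ΔΨ = 0.0282 ± 0.0024, adjusted p = 1.89e-23). The 2 events thus had small changes with little spread.

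The named rule also took WBP1, a WW domain-binding protein, with ΔΨ of 0.42, 0.39, and 0.48 with GSK591 at 2, 4, and 7 days (adjusted p = 2.7e-05, 1.03e-06, and 2.05e-12). WBP1 has 2 listed events with the same acceptors and different flanking exons, and the value of 7 days belongs to another event than those of 2 and 4 days. C1orf63 fell at 2 days (ΔΨ = −0.35, adjusted p = 5.16e-05) and OCEL1 at 7 days (ΔΨ = −0.27, adjusted p = 0.000373). ECHDC2, an enoyl-CoA hydratase-like protein, rose at 7 days in its 1521 nt event (ΔΨ = 0.41 ± 0.066, adjusted p = 0.000284).

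Among the events called in all 3 comparisons with MS023, Ψ fell in FN1, which encodes fibronectin. The extensions of 360 and 285 nt (ENSG00000115414.14, chr2:216236739-216237098 and chr2:216236739-216237023, in coding sequence) hold 120 and 95 codons and lie in the variable region of the protein, which is known for its binding site for integrins. Both extensions held an intron that the tables also list as retained, so a lower Ψ there is not by itself a lower use of the upstream acceptor. Ψ of the 360 nt event was 0.925, 0.889, and 0.909 in DMSO at 4 days. It was 0.729, 0.664, and 0.689 with MS023 for 2 days, and 0.697, 0.671, and 0.677 for 4 days. Each MS023 library was below each DMSO library (ΔΨ = −0.21 ± 0.022 and −0.23 ± 0.013, adjusted p = 2.05e-24 and 8.48e-16). At 7 days Ψ was 0.861, 0.867, and 0.849 in DMSO and 0.667, 0.659, and 0.655 with MS023 (ΔΨ = −0.20 ± 0.0061, adjusted p = 6.71e-17).

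The 285 nt event of FN1 moved in the same direction, from 0.839, 0.764, and 0.796 in DMSO at 4 days to 0.499, 0.473, and 0.467 with MS023 for 4 days (ΔΨ = −0.32 ± 0.024, adjusted p = 6.47e-14). Both events share the reads of the downstream acceptor, so they are not independent of each other. With GSK591 for 7 days the 285 nt event was higher than in DMSO, at 0.809, 0.784, and 0.76 against 0.705, 0.711, and 0.696 (ΔΨ = 0.0802, adjusted p = 0.00295), and without GSK591 library a the call was lost (adjusted p = 0.077). With GSK591 plus MS023 for 2 days Ψ of the 360 nt event was 0.818, 0.868, and 0.758 (ΔΨ = −0.0930, adjusted p = 0.000609), a call lost without library c of that group (adjusted p = 0.0505). At 4 days with both, it was 0.902, 0.926, and 0.856, which overlapped the DMSO libraries and was not called.

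The other events with the largest falls in all 3 comparisons with MS023 lay in NR1H3, CPSF4, and RECQL, and the rule took 1 rise, in HERC2P2. NR1H3 encodes the oxysterol receptor LXRα, and its extension of 372 nt (chr11:47283098-47283469), a multiple of 3, holds an intron listed as retained. Its Ψ was 0.815, 0.831, and 0.881 in DMSO at 7 days and 0.594, 0.497, and 0.486 with MS023 for 7 days (ΔΨ = −0.32 ± 0.040, adjusted p = 2.6e-05). At 2 days ΔΨ was −0.29 (adjusted p = 0.000758), and the call was lost without MS023 library b (adjusted p = 0.0702). At 4 days ΔΨ was −0.25 (adjusted p = 0.00854), and each of 5 libraries left out ended the call, with adjusted p of 0.126 and 0.0808 without DMSO library b or c and 0.0839, 0.0597, and 0.139 without MS023 library a, b, or c. The MS023 groups lay below the DMSO groups on every day.

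RECQL is a DNA helicase of the RecQ family, and its 157 nt extension (chr12:21654150-21654306) lies in untranslated sequence. Ψ was 0.76, 0.721, and 0.681 in DMSO at 4 days, 0.517, 0.543, and 0.539 with MS023 for 2 days, and 0.503, 0.553, and 0.485 with MS023 for 4 days. It was 0.948, 0.867, and 0.861 with GSK591 for 2 days and 0.992, 0.895, and 0.936 with GSK591 for 4 days. The MS023 libraries lay below and the GSK591 libraries above all 3 DMSO libraries. Against DMSO the change at 4 days was −0.21 ± 0.031 with MS023 (adjusted p = 9.77e-06) and 0.22 ± 0.036 with GSK591 (adjusted p = 1.92e-07). At 7 days the changes were −0.17 and 0.12 (adjusted p = 0.015 and 0.0413). The GSK591 libraries of 7 days overlapped those of DMSO. The GSK591 call of 7 days was lost without DMSO library b or c (adjusted p = 0.162 and 0.386) or GSK591 library a or c (0.373 and 0.337). The MS023 call of 7 days was lost without DMSO library a or b (adjusted p = 0.152 and 0.05) or MS023 library a, b, or c (0.232, 0.0783, and 0.327).

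CPSF4 is the zinc-finger subunit of the cleavage and polyadenylation factor that binds the AAUAAA signal. Its extensions of 75 and 78 nt (chr7:99051589-99051663 and chr7:99051589-99051666) hold 25 and 26 codons and differ by the CAG that separates the downstream acceptors. Ψ of the 75 nt event was 0.37, 0.355, and 0.413 in DMSO at 4 days, 0.242, 0.23, and 0.223 with MS023 for 4 days, and 0.575, 0.674, and 0.623 with GSK591 for 4 days. The 3 groups did not overlap (ΔΨ = −0.15 ± 0.018 with MS023 and 0.24 ± 0.034 with GSK591, adjusted p = 0.00101 and 2.42e-06). With MS023 for 2 days the 75 nt event was not called (ΔΨ = −0.0748, adjusted p = 0.316). Only the 78 nt event was called in all 3 comparisons with MS023. Ψ of the 78 nt event was 0.827, 0.861, and 0.714 in DMSO at 4 days and 0.624, 0.656, and 0.562 with MS023 for 4 days (ΔΨ = −0.19 ± 0.052, adjusted p = 0.02). That call was lost without DMSO library a or b (adjusted p = 0.0863 and 0.224) or MS023 library a, b, or c (0.184, 0.117, and 0.238). With GSK591 the 78 nt event was not called at 2, 4, or 7 days (adjusted p = 0.413, 0.0983, and 0.586). The CPSF4 events share the upstream acceptor, so they are not independent of each other.

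HERC2P2 is a pseudogene with near-identical copies, so its reads are uncertain in origin. Its Ψ was 0.102, 0.491, and 0.416 in DMSO at 7 days and 0.613, 0.568, and 0.53 with MS023 for 7 days (ΔΨ = 0.23 ± 0.12, adjusted p = 7.17e-06). The DMSO libraries differed widely among themselves, and without DMSO library a ΔΨ was 0.12 and the adjusted p 0.0772. Without MS023 library a, b, or c the adjusted p was 0.0724, 0.1, and 0.0842. At 2 and 4 days the groups overlapped. Other named rises with MS023 were those of SIK3 at 2 days (ΔΨ = 0.22 ± 0.013, adjusted p = 0.00105), CCDC150 at 4 days (ΔΨ = 0.30, adjusted p = 0.00268, 0.105 without MS023 library c), and ERI2 at 7 days (ΔΨ = 0.29, adjusted p = 0.000963), which was lost without DMSO library c or MS023 library a or b (0.0573, 0.0561, and 0.0805). SIK3 is a salt-inducible kinase and ERI2 an exonuclease domain protein. BRD1, a scaffold of histone acetyltransferase complexes, rose at 2 and 4 days (ΔΨ = 0.20 and 0.22, adjusted p = 0.000482 and 0.000376), with an adjusted p of 0.0542 without MS023 library b at 2 days and 0.062 without MS023 library c at 4 days. With MS023 at 7 days BRD1 was not called (adjusted p = 0.083). It was also called higher with GSK591 at 4 and 7 days (ΔΨ = 0.17 and 0.22, adjusted p = 0.00487 and 0.00968, up to 0.102 and 0.164 with 1 library left out). Named falls were also those of GGT1 at 4 days (ΔΨ = −0.23 ± 0.028, adjusted p = 0.000219) and of ECHDC2 at 7 days in its 231 nt event (ΔΨ = −0.29 ± 0.025, adjusted p = 0.000451).

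**Figure D3:**
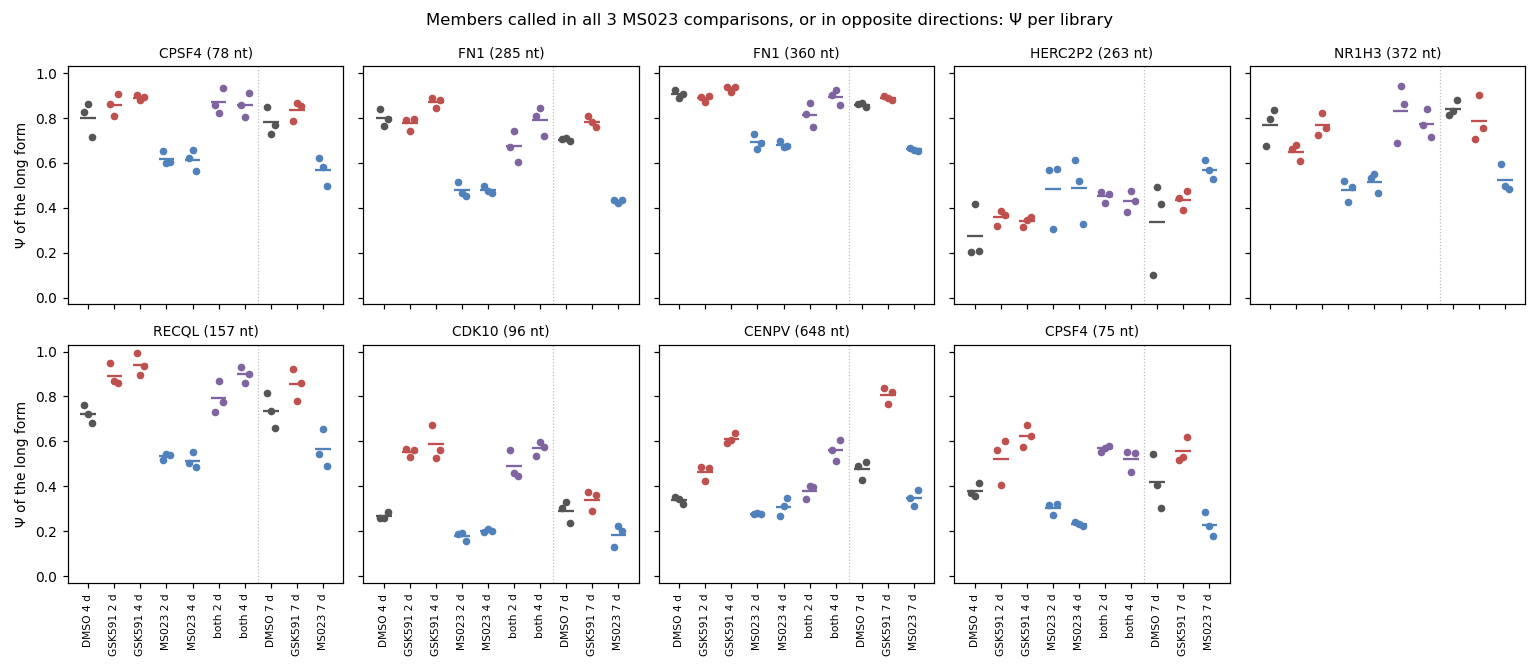
Ψ of 9 distant-acceptor events (y axis) in the 10 groups (x axis), named above each panel by gene and distance between acceptors; each point is a library, each horizontal bar the mean of 3, and the dotted line separates the 7 d groups. In FN1 (360 nt) the MS023 libraries sit between 0.655 and 0.729 and the DMSO libraries between 0.849 and 0.925, and in CDK10, CENPV, CPSF4 (75 nt), and RECQL the 4 d means of MS023 and GSK591 lie on opposite sides of DMSO. The MS023 change at 4 d was not called by the logistic model in CDK10 or CENPV (adjusted p = 0.206 and 0.334).

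Some events were called in opposite directions with the inhibitors on the same day, 19 at 2 days, 23 at 4 days, and 21 at 7 days, in 48 distinct events. These were 0.6852%, 0.8191%, and 0.7842% of the distant-acceptor events tested with both inhibitors on the day, beside 0.389%, 0.468%, and 0.494% of all A3SS events. The inhibitor groups of a day share their controls, and the choice of these events fixes that the inhibitors differ, so their differences are given as a description with no test. In 13, 17, and 17 of them Ψ was higher with GSK591 and lower with MS023. CENPV, a centromere protein, gave the largest of these differences apart from RNF216. The extension of its 648 nt event (ENSG00000166582.5, chr17:16252000-16252647) has a length that is a multiple of 3 and holds an intron listed as retained. Ψ of this event was 0.491, 0.427, and 0.509 in DMSO at 7 days, 0.836, 0.767, and 0.82 with GSK591, and 0.35, 0.314, and 0.382 with MS023. The 3 groups did not overlap, and the inhibitors differed by 0.46 ± 0.029. Against DMSO the change was 0.33 with GSK591 (adjusted p = 2.03e-15) and −0.13 with MS023 (adjusted p = 3.06e-05, 0.0547 without MS023 library b).

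CDK10, a cyclin-dependent kinase, had Ψ of 0.258, 0.26, and 0.286 in DMSO at 4 days, 0.568, 0.53, and 0.56 with GSK591 for 2 days, and 0.189, 0.193, and 0.158 with MS023 for 2 days in its 96 nt event (32 codons). GSK591 and MS023 differed by 0.37 ± 0.016 at 2 days. The part of this difference that lay between MS023 and DMSO was smaller (ΔΨ = −0.0883, adjusted p = 0.037), and leaving out any 1 of the 6 libraries ended that call (adjusted p up to 0.205, without MS023 library c).

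WSB1 and PTMS, a WD-repeat protein and parathymosin, were lower with GSK591 than with MS023 on all 3 days, and were chosen for mention after their values were seen. The direct difference in WSB1 (1356 nt) was −0.17, −0.23, and −0.13 at 2, 4, and 7 days, and in PTMS (77 nt) −0.0843, −0.11, and −0.11. MOV10, an RNA helicase, and PFN2, a profilin, were higher with GSK591 at 2 days by 0.25 (607 nt) and 0.23 (322 nt) and at 4 days by 0.25 and 0.18.

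With GSK591 plus MS023, the events that moved furthest were in part those of GSK591 and in part others. D2HGDH, a mitochondrial dehydrogenase, has an 804 nt event in untranslated sequence with Ψ of 0.425, 0.354, and 0.365 in DMSO at 4 days. With GSK591 for 4 days Ψ was 0.41, 0.621, and 0.502, with MS023 0.451, 0.502, and 0.447, and with both 0.775, 0.819, and 0.815. Of these 3 groups only that with both was called (ΔΨ = 0.42 ± 0.026, adjusted p = 3.16e-08), and its difference from either inhibitor alone was not tested.

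NAGK, a kinase of N-acetylglucosamine, has an event with acceptors 1049 nt apart, in which only the intron to the upstream acceptor was annotated. Its Ψ was 0.943, 1, and 0.89 in DMSO at 4 days, 0.393, 0.67, and 0.492 with both for 2 days, and 0.434, 0.427, and 0.646 with both for 4 days. Each library with both inhibitors was below each DMSO library (ΔΨ = −0.43 ± 0.087 and −0.44 ± 0.078, adjusted p = 4.73e-08 and 2e-08). With GSK591 alone for 4 days it was 0.765, 0.752, and 0.821 (ΔΨ = −0.16, adjusted p = 0.0129), a call lost without DMSO library a or b (0.0694 and 0.165) or GSK591 library a or b (0.0671 and 0.0589). NDUFS7, a subunit of respiratory complex I, fell from 1 in all 3 DMSO libraries to 0.47, 0.443, and 0.372 with both for 4 days (ΔΨ = −0.57 ± 0.029, adjusted p = 0.00976, and 0.0509 and 0.0505 without DMSO library a or b). Neither intron of this NDUFS7 event was annotated, and the event was listed in 2 of the 8 tables.

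SNHG1 and GAS5 are non-coding hosts of small nucleolar RNAs, which lie in their introns. Ψ of the 231 nt event of SNHG1 was 0.958, 0.932, and 0.916 in DMSO at 4 days, 0.6, 0.701, and 0.582 with GSK591 for 4 days, and 0.471, 0.477, and 0.486 with both for 4 days. The 3 groups did not overlap (ΔΨ = −0.31 ± 0.039 and −0.46 ± 0.013, adjusted p = 7.44e-16 and 3.42e-22). The 978 nt event of GAS5 had Ψ of 1, 0.992, and 1 in DMSO at 4 days, 0.926, 0.929, and 0.956 with GSK591, and 0.702, 0.644, and 0.681 with both for 4 days (ΔΨ = −0.0602 and −0.32, adjusted p = 0.000115 and 6.98e-15). In both genes the extension held a listed retained intron.

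Compared directly, GSK591 and MS023 differed in more distant-acceptor events than either did from DMSO. At 4 days 550 of 2828 events tested were called, 372 with higher Ψ with GSK591 (13.15%, against 9.17% of all A3SS events) and 178 with lower Ψ (6.294%, against 4.43%). At 2 days the counts were 237 and 97 of 2787 (8.504% and 3.48%, against 5.82% and 2.6%). At 7 days they were 259 and 151 of 2704 (9.578% and 5.584%, against 6.54% and 4.33%). The median ΔΨ over all distant-acceptor events tested for the days 2, 4, and 7 was 0.00183, 0.00211, and 0.000696. The lower quartiles of ΔΨ were −0.00869, −0.0088, and −0.00883, and the upper quartiles were 0.0261, 0.0311, and 0.0222. By limma, 141 were called at 4 days (background 3.32%), 49 at 7 days (background 1.21%), and 0 at 2 days, where 546 had an unadjusted p under 0.05 and the logistic model called 334.

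**Figure D4:**
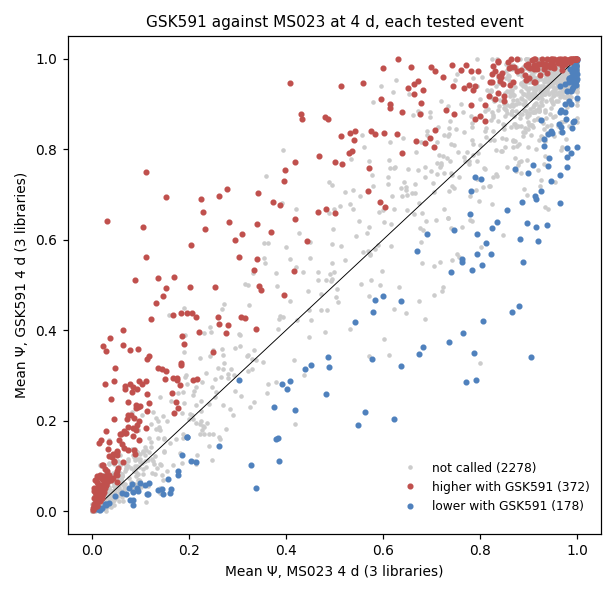
Mean Ψ of each tested distant-acceptor event with GSK591 for 4 d (y axis) against that with MS023 for 4 d (x axis), 3 libraries each; the diagonal marks equal Ψ. Of the points, 372 were called higher with GSK591, 178 lower, and 2278 were not called, and those called lie to both sides of the diagonal over the whole range of Ψ.

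RECQL, one of the events called in opposite directions, gave a direct difference of 0.36 ± 0.029 at 2 days and 0.43 ± 0.035 at 4 days. In the 285 nt event of FN1 the direct differences of the days 2 and 4 were 0.30 ± 0.025 and 0.39 ± 0.017 (adjusted p = 7.03e-13 and 5.22e-39). At 7 days, when it was among the events called in opposite directions, the difference was 0.35 ± 0.015. ECI2, an enoyl-CoA isomerase, went the other way at 4 days in its 1824 nt event. Its Ψ was 0.352, 0.322, and 0.448 with GSK591 and 0.717, 0.71, and 0.78 with MS023 (ΔΨ = −0.36 ± 0.044). It too was among the events called in opposite directions on that day, so no test is given.

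The extension of many events overlapped an intron listed as retained (RI) in the same table, and the direction of the calls differed between these structures. Of the 879 events whose extension held a whole listed RI intron, 67 were called lower (7.622%) and 28 higher (3.185%) with GSK591 for 4 days. Of the 1999 events whose extension met no listed RI intron, 70 were called lower (3.502%) and 180 higher (9.005%). With GSK591 plus MS023 for 4 days, the split was 103 lower and 38 higher of 870 in the extensions that held such an intron, and 117 lower and 215 higher of 2033 in those that met none. MS023 for 4 days gave 18 lower and 7 higher of 819 in the extensions that held one, and 62 lower and 24 higher of 2067 in those that met none, which is the same direction in both. No test of the difference between structures was made.

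Where the extension holds a whole intron, the long form of such an event can also be counted from reads of a small exon in front of that intron, spliced on to the downstream exon. A lower Ψ there can be less use of the upstream acceptor, less retention, or skipping of that exon, which cannot be told apart from these counts. Besides TMEM141, PRPF40B, and STAG3L4, this holds for the events described here of FN1, NR1H3, CENPV, WBP1, BRD1, CCDC150, ECI2, and NAGK. It also holds for those of NDUFS7, SNHG1, GAS5, MUTYH, SF1, U2AF1L4, and DYRK1B, and for the 1521 nt event of ECHDC2. Over all events whose extension held a whole listed RI intron, the median Ψ in DMSO was 0.9927 at 4 days, against 0.8968 in the events without a listed RI intron. The extensions of AP5Z1, C1orf63, and SRSF5 lay inside a listed RI intron. Of 792 events in which only the intron to the upstream acceptor was annotated, 45 were called lower and 6 higher with GSK591 for 4 days. Of 1961 events with both introns annotated, 93 were lower and 202 higher. Extensions that lay inside a longer RI intron gave 21 higher and 12 lower of 191 with GSK591 for 4 days, and 2 higher and 15 lower of 184 with MS023 for 7 days.

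**Figure D5:**
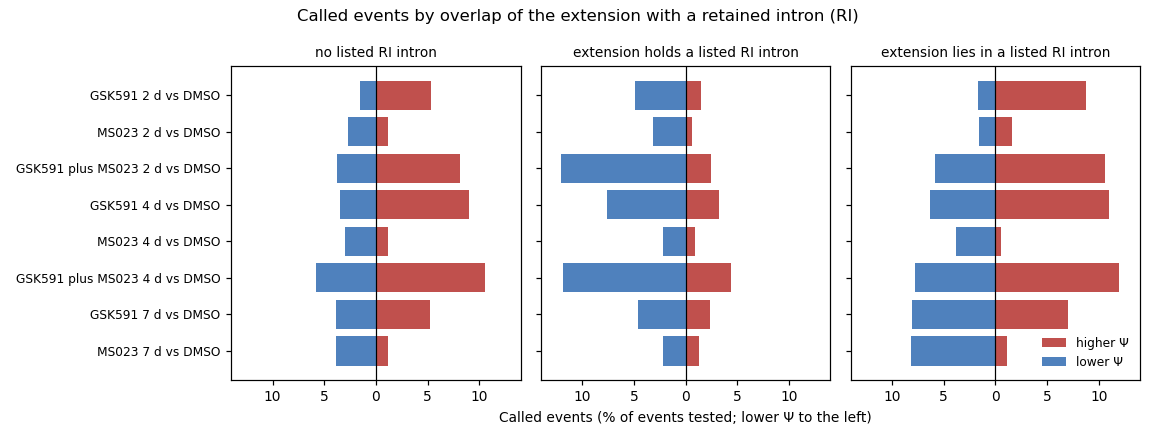
Share of tested distant-acceptor events called with higher Ψ (right) and lower Ψ (left), in percent on the x axis, for the 8 comparisons with DMSO (y axis), in 3 panels for extensions that met no listed retained intron, held one, or lay in one. With GSK591 for 4 d, 9.005% were higher and 3.502% lower without a listed retained intron, against 3.185% and 7.622% where the extension held one.

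The distance between acceptors had no fixed relation to the direction of a GSK591 call. At 2 days the median distance was 240.5 nt in events with lower Ψ, 136 nt in those with higher Ψ, and 133 nt in those not called, and at 4 days 168, 130, and 134 nt. By 7 days the order of the called events was turned, with 151 nt for lower, 177.5 nt for higher, and 130 nt for not called. The intron before the upstream acceptor was shorter, by the median, in events called with GSK591 at all times, with values at 4 days of 602 nt (lower), 631 nt (higher), and 907 nt (not called). The share of called events was also higher the farther apart the acceptors lay in the broad classes. At 4 days with GSK591 the share was 12.37% over 50 nt, 6.589% at 4 to 50 nt, and 1.7% at 3 nt, and with MS023 for 4 days 3.923%, 1.511%, and 0.9722%. Depth differed between the classes, with a median of the least reads of 166, 117.5, and 87 at GSK591 4 days. Among events with at least 100 reads in every library the shares were 14.81%, 7.889%, and 2.866% with GSK591 and 5.504%, 2.157%, and 1.433% with MS023 for 4 days. Just inside the rule, at 51 to 55 nt, 8 events were higher and 9 lower of 201 with GSK591 for 4 days, and just outside it, at 46 to 50 nt, 9 and 8 of 167.

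Of 1226 events with a distance that was a multiple of 3, 7.667% were higher and 4.323% lower with GSK591 for 4 days, and of 1911 others 7.483% and 5.128%. Extensions in untranslated sequence gave 41 higher and 11 lower of 292 with GSK591 for 4 days (14.04% and 3.767%) and 4 higher and 28 lower of 289 with MS023 for 7 days (1.384% and 9.689%). Coding extensions gave 162 higher and 125 lower of 2585 with GSK591 for 4 days. Ψ in DMSO went with the direction that an event could take. Where it was at most 0.05, 65 of 386 events were higher and 6 lower with GSK591 for 4 days, and where it was over 0.95, 11 of 1604 were higher and 63 lower. The events higher with MS023 for 4 days, 32 in number, had a mean pyrimidine share of 82.62% before the upstream acceptor, against 74.24% in the 91 lower ones and 74.25% in those not called. At 2 days the events higher with MS023 had 80.08% (74.23% in those not called), but at 7 days 75.52% (74.47%), so that the gap was small on that day.

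Few distant-acceptor events were tested in the listed genes of RNA processing. Over all distant-acceptor events, 7.555% were higher and 4.814% lower with GSK591 for 4 days, 4.599% and 4.396% for 7 days, and 1.021% and 2.903% with MS023 for 4 days. Over the 8 comparisons with DMSO the shares ran from 1.021% to 8.942% higher and from 2.505% to 7.551% lower. No test of a list against these shares was made. Of 42 SR protein and hnRNP genes, 12 to 15 events were tested per comparison with DMSO. With GSK591 for 4 days 4 of 13 were higher and 1 lower, in 4 genes, those of HNRNPK and PCBP2 among the higher ones, and with MS023 for 4 days 2 of 14 were higher. SRSF5, an SR protein, has a 956 nt event with Ψ of 0.175, 0.177, and 0.17 in DMSO at 4 days and 0.226, 0.23, and 0.239 with MS023 for 2 days (ΔΨ = 0.0575 ± 0.0044, adjusted p = 1.27e-12). Of 30 genes of 3′ splice site recognition and the U2 snRNP, 15 to 17 events were tested, and 0 or 1 were higher and 1 to 3 lower in each comparison. U2AF1L4, a paralog of the small U2AF subunit, gave 0.41, 0.434, and 0.398 in DMSO at 4 days and 0.227, 0.258, and 0.228 with both inhibitors for 4 days in its 317 nt event (ΔΨ = −0.18 ± 0.015, adjusted p = 3.38e-06). SF1 fell slightly in its 637 nt event with GSK591 for 4 days, from 0.987, 0.983, and 0.988 to 0.944, 0.923, and 0.951 (ΔΨ = −0.0465 ± 0.0085, adjusted p = 0.000156).

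Of 48 genes of Sm proteins, U1, the tri-snRNP, and the step factors, 22 to 28 events were tested, and 0 to 3 were higher and 0 to 4 lower. The 3 higher of 23 came with both inhibitors for 4 days (8.942% over all distant-acceptor events). The 4 lower of 24 came with MS023 for 7 days (3.722% over all), and all lay in 1 gene. The 146 nt event of SNRPB, which encodes SmB, had Ψ of 0.756, 0.757, and 0.733 in DMSO at 7 days and 0.665, 0.688, and 0.663 with GSK591 for 7 days (ΔΨ = −0.0766 ± 0.011, adjusted p = 6.78e-10). Of 31 genes of mRNA export and nonsense-mediated decay, 11 to 13 events were tested, with 3 higher and 1 lower of 11 at GSK591 4 days and 1 and 1 of 11 at MS023 4 days. DDX39B, an RNA helicase of mRNA export, rose in its 130 nt event from 0.783, 0.766, and 0.775 to 0.933, 0.934, and 0.94 with both inhibitors for 4 days (ΔΨ = 0.16 ± 0.0056, adjusted p = 2.23e-15). THOC2, a subunit of the export complex TREX, fell from 0.167, 0.153, and 0.158 to 0.0727, 0.0706, and 0.0785 with MS023 for 4 days (ΔΨ = −0.0853 ± 0.0047, adjusted p = 7.38e-05). Of 15 splicing kinase genes, 6 to 8 events were tested and 0 to 2 were higher and 0 or 1 lower. Among them CDK13 rose with both inhibitors for 4 days (180 nt, ΔΨ = 0.19 ± 0.015, adjusted p = 3.72e-06).

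Of 21 snoRNA host genes, 20 to 26 events were tested, 0 were higher in any comparison with DMSO, and 6 of 24 were lower with GSK591 for 4 days and 4 of 23 for 7 days, on each day in 2 genes. With MS023 at most 1 was lower in a comparison. Of 54 DNA repair genes, 16 to 22 events were tested. At GSK591 7 days 1 of 20 was higher and 5 lower, in 3 genes, and in each of the other 7 comparisons with DMSO 0 or 1 were higher and 0 to 2 lower. MUTYH, a glycosylase of base excision repair, gave 1 in all 3 DMSO libraries of 4 days and 0.837, 0.749, and 0.822 with both inhibitors for 2 days (ΔΨ = −0.20, adjusted p = 0.00738, 0.0637 without DMSO library b). Of 29 genes of the p53 pathway and apoptosis, 3 to 6 events were tested, and 0 or 1 were higher and 0 lower. Of 14 genes of PRMTs and the methylosome, 1 or 2 events were tested, and 0 were called by the logistic model in any comparison with DMSO. At an unadjusted p under 0.05 the same model also gave 0 higher events in the snoRNA hosts, 0 lower events in the p53 list, and 0 events in the PRMT list, and limma called 6, 0, and 0 events of these lists over the 8 comparisons. Over the 9 lists the median ΔΨ of the tested events lay between −0.0373 and 0.0791, both in the splicing kinases, where the median over all distant-acceptor events lay between −0.00228 and 0.000141.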

How the data were processed

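A549 libraries were used in 30 of the samples, in 10 groups. Samples of other assays of the series were not analysed here. Per the submitters' processing notes, the reads were handled with Trim Galore 0.6.5, STAR 2.4.2a, Picard 2.3.0, and deepTools 3.3.1 on hg19 (GRCh37), and the study names rMATS for splicing. The authors deposited 8 rMATS tables, each of an inhibitor group against DMSO. Per the file headers, their columns hold inclusion and skipping counts of junction and exon reads in each library, comma-joined, with the effective length of each form and Ψ as a fraction. The deposited p-values, adjusted p-values, and differences are the authors' comparisons and were not used. Table columns carry no replicate numbers. That the tables of 7 days used DMSO of 7 days was inferred, since their labels name neither the day nor the treatment of the control.

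Ψ was recomputed from the counts and differed from the deposited value by at most 0.0005 in 356652 values. DMSO counts were identical between tables in all 110817 event pairs. Each A3SS event with at least 10 reads in every library was fitted with a quasi-binomial logistic model of long against short counts in R 4.3.3. Dispersions were moderated over all A3SS events of a comparison with squeezeVar of limma 3.58.1 and held at 1 or above, an F test was made, and p-values were adjusted by Benjamini-Hochberg over all A3SS events tested. GSK591 and MS023 were compared directly on the same day in events listed in both tables. ΔΨ is the difference of group means with its SE from both groups' SD. Tables were handled with Python 3.11.15, pandas 2.3.3, numpy 2.4.6, and matplotlib 3.10.9. The scripts were tested on simulated data.

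Depth sets the precision. Of the distant-acceptor events, only those with enough reads in every library were tested (2704 to 3165 per comparison). Counting error enters each test through the binomial variance of the counts, and the dispersion floor of 1 keeps the spread from being set below it. Annotation came from GENCODE v44lift37 and sequences from GRCh37.

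Named events were, per comparison with DMSO, the 3 largest rises and falls among called events with at least 50 reads and no overlap between groups (1 per gene, that with most reads), the 6 largest mean changes among events called alike in all 5 GSK591 or all 3 MS023 comparisons, the 6 largest direct differences among events called in opposite directions, and at most 3 called events per direction of each of 9 gene lists. Some named events are not reported here. The events, lists, and rules were chosen with earlier results of these data known. Alternatives were another test (limma on log2 odds with 0.5 added), other read minimums, no dispersion floor, adjustment over all 5 event types, a distance over 100 nt, 1 event per acceptor pair, exclusion of extensions that overlap a listed retained intron, no length correction, and each library left out in turn. A dispersion trend on the reads of the rarer form and a requirement that groups do not overlap were added after the data were seen.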

Additional observations from a re-analysis of the deposited data

Results flagged for a closer look

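In 3 events the libraries of 1 inhibitor all moved one way on an earlier day and all the other way on day 7. Days 2 and 4 were set against the DMSO libraries of 4 days, and day 7 against those of 7 days. The difference between days was not tested, and in C1orf63 and DYRK1B the change on day 7 was itself not called. The 591 nt event of C1orf63 had a ΔΨ of −0.345 with GSK591 at 2 days, −0.255 at 4 days, and 0.135 at 7 days (adjusted p by the logistic model = 5.16e-05, 0.000274, and 0.0706), a difference between days of 0.48 (7 against 2 days) and 0.39 (7 against 4 days). Its Ψ in DMSO itself differed between the days, at 0.829, 0.866, and 0.778 on day 4 and 0.462, 0.562, and 0.527 on day 7. With GSK591 it was 0.584, 0.502, and 0.352 at 2 days, 0.631, 0.588, and 0.49 at 4 days, and 0.607, 0.707, and 0.642 at 7 days. C1orf63 encodes a protein with arginine and serine repeats.

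The 120 nt event of DYRK1B, a kinase of the DYRK family, had a ΔΨ of 0.166 with GSK591 at 4 days and −0.0733 at 7 days (adjusted p by the logistic model = 0.00325 and 0.306), a difference of −0.239. Its extension held an intron listed as retained. The 956 nt event of SRSF5 had a ΔΨ of 0.0575 with MS023 at 2 days, 0.0211 at 4 days, and −0.0354 at 7 days (adjusted p by the logistic model = 1.27e-12, 0.0705, and 0.000603, the last up to 0.129 with 1 library left out), a difference of −0.0929 (7 against 2 days) and −0.0565 (7 against 4 days). Ψ of SRSF5 in DMSO was 0.175, 0.177, and 0.17 on day 4 and 0.19, 0.217, and 0.224 on day 7.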

How the results depend on the processing

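No paired analysis was possible because the columns of the tables carry no replicate numbers. Counts of called distant-acceptor events kept within 1.5 times the reported count, in all 11 comparisons, with at least 20 reads, with no read filter, with no dispersion floor, with adjustment over all 5 event types, with 1 event per acceptor pair, and with calls limited to groups that did not overlap. Limma on log2 odds called 0 with GSK591 at 2, 4, and 7 days, 0 with MS023 on the same days, 29 and 110 with both at 2 and 4 days, and 0, 141, and 49 in the direct comparison at 2, 4, and 7 days. Without extensions that overlap a listed retained intron, fewer events enter by construction. The counts were then 134, 250, and 173 with GSK591 at 2, 4, and 7 days, 79 and 98 with MS023 at 2 and 7 days, 234 and 332 with both, and 270 in the direct comparison at 7 days. Over 100 nt, the direct comparison at 4 days gave 364, also by construction. With the added dispersion trend, MS023 at 2 days gave 78.

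With each library left out in turn, calls ranged from 130 to 166, 228 to 314, and 122 to 195 with GSK591 at 2, 4, and 7 days. They ranged from 40 to 89, 52 to 108, and 59 to 100 with MS023. With both they ranged from 240 to 314 at 2 days and 348 to 425 at 4 days. The direct comparison ranged from 231 to 302, 359 to 481, and 241 to 321. Counts moved by over 1.5 times without DMSO a (134), DMSO b (130), or GSK591 b (139) at GSK591 2 days, MS023 a (55) or b (40) at MS023 2 days, and DMSO b (261) or treated b (240) with both at 2 days. They did so without DMSO a (251), DMSO b (240), or GSK591 c (228) at GSK591 4 days, and without DMSO b (55) or MS023 a (52), b (57), or c (54) at MS023 4 days. At 7 days this held without DMSO b (176), DMSO c (163), or GSK591 c (122) for GSK591, and without DMSO a (90), DMSO c (73), or MS023 a (68), b (59), or c (61) for MS023. In the direct comparison it held without MS023 b at 4 days (359) and MS023 a (241) or GSK591 c (241) at 7 days. Fewer libraries leave fewer degrees of freedom. No named event turned its direction in the comparison that named it. In another comparison, HERC2P2 with GSK591 for 7 days went from a ΔΨ of 0.0994 (adjusted p = 0.0193) to −0.0178 (adjusted p = 0.943) without DMSO library a. The median ΔΨ over the tested events moved by more than the SD between treated libraries in 24 of 48 fits with a library left out, in 3 of 8 comparisons with at least 20 reads, and in 4 of 8 with no length correction, which enters Ψ but not the test. Without that correction the medians with MS023 at 2, 4, and 7 days went from −0.00201, −0.00228, and −0.00215 to −0.000986, −0.00121, and −0.00112. Each of the 65 named events kept its direction without it. Of the 65 named events, 10 stayed called by limma, and 44 stayed called without each library in turn in the comparison that named them.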
